A study of Prunus persica with 8 samples.

Results

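The stretch of peach chromosome 2 around TAC1 was described gene by gene in pillar and standard trees. TAC1 (TILLER ANGLE CONTROL 1, Prupe.2G194000) is the gene mutated in pillar peach, and it lies on the plus strand of chromosome 2 from 23233979 to 23236950 in peach genome version 2. The segment was set by position and a minimum level, with earlier results of these data known. It holds genes that start within about 1 Mb of TAC1 on either side and average 0.5 TPM or more over the 8 trees. The first of these genes starts at 22202265 and the last at 24298928. TPM is a read count scaled to gene length and to an equal total in every library. Of 335 genes in this window 263 passed the minimum and are the members, out of 20055 genes that passed it in the whole table and 26873 genes in all. Of the 72 others, 26 had 0 TPM in every tree and 46 had up to 0.48 TPM on average. The 4 pillar trees stood apart from the 4 standard trees for 0 of these 46, beside 663 of all 24408 genes above 0 TPM (2.72%). At that share 46 genes may well hold none.

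RNA came from shoot tips, with leaves removed, of mature field-grown trees at a research station, and each tree gave 1 library of single 50-bp reads. The pillar group was trees 4, 7, 8 and 10 and the standard group was trees 7, 8, 9 and 10, all untreated F2 trees from 1 self-pollinated tree that was heterozygous for the pillar trait (a seedling of the pillar tree Kv93065 and the variety "Weeping White"). Pillar trees of this population are given as tac1/tac1, and the standard trees that were measured for growth as TAC/TAC1. Upright trees are a separate class of the population, and heterozygous trees are described as upright. The methods count 3 shoot tips per tree and the series record 4, and the sequencing data of the standard trees served an earlier study as well. Trees that differ at TAC1 in such a cross also tend to differ at the DNA inherited with it, so for any other gene of the segment a difference in its own linked sequence and an effect of TAC1 loss cannot be told apart. A bulk tip holds many cell types, and fewer cells of a type and less RNA per cell cannot be told apart either.

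TAC1 belongs to the IGT family of plant genes, which also holds the LAZY genes. IGT genes set the angle at which branches, tillers and roots leave the main axis. LAZY genes act in gravity sensing and make shoots grow more upright, whereas TAC1 makes branches grow more outward. Loss of TAC1 in peach gives the pillar habit of narrow, upright branches, and the gene was first known from tiller angle in rice.

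The 8 libraries held between 18429259 and 23994336 reads on genes. Lane 8 held pillar trees 4 and 7 and lane 6 held all the others, so lane and growth habit were partly confounded. Pillar tree 4 stood apart and ranked first of the 8 trees for 31.8% of all tested genes and for 81 of the 263 members (30.8%). TAC1 served to check the growth habit labels, and the shoot tip itself could not be checked against marker genes because neither the table nor the reference pairs these gene IDs with names.

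TAC1 was nearly silent in pillar trees, while the genes directly beside it differed little. TAC1 had 0.802, 0.83, 1.15 and 1.27 TPM in pillar trees 4, 7, 8 and 10, against 23.8, 17.2, 25.9 and 28.2 TPM in standard trees 7, 8, 9 and 10. These levels rested on 20, 19, 31 and 36 reads in the pillar trees and on 635, 449, 694 and 785 reads in the standard trees. The groups lay far apart, and every pillar tree still had reads on the gene. Pillar trees averaged 1.01 ± 0.233 TPM, against 23.8 ± 4.72 TPM for standard trees (SD, n = 4 each), so pillar trees had 0.0426 of the standard level. The log2 fold change of pillar over standard was -3.99 (95% confidence interval -4.43 to -3.56, adjusted p = 4.31e-05, limma). An exact two-sided permutation test over the trees gave p = 0.0286, the smallest that 4 trees against 4 allow.

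The 3 members next to TAC1 on the side of lower coordinates start 11, 15 and 26 kb away. Prupe.2G193900 had 157, 110, 112 and 141 TPM in pillar trees, against 221, 157, 142 and 162 TPM in standard trees, and the groups overlapped. Its log2 fold change was -0.39 (95% confidence interval -0.78 to 0.01, adjusted p = 0.902, limma). Prupe.2G193800 and Prupe.2G193700 had log2 fold changes of -0.23 and -0.26, each with overlapping groups. On the side of higher coordinates Prupe.2G194100, only 4 kb from the start of TAC1 and on the same strand, had 192, 188, 204 and 243 TPM in pillar trees, against 190, 195, 211 and 195 TPM in standard trees. It was the steadiest of the neighbours, with a log2 fold change of 0.06 (95% confidence interval -0.21 to 0.32, adjusted p = 0.928, limma). Prupe.2G194200 and Prupe.2G194300 had log2 fold changes of 0.14 and 0.05. Across these 6 neighbours the confidence intervals ran from -0.78 to 0.69 on the log2 scale, so a change as large as that of TAC1 lay outside all of them.

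**Figure D1:**
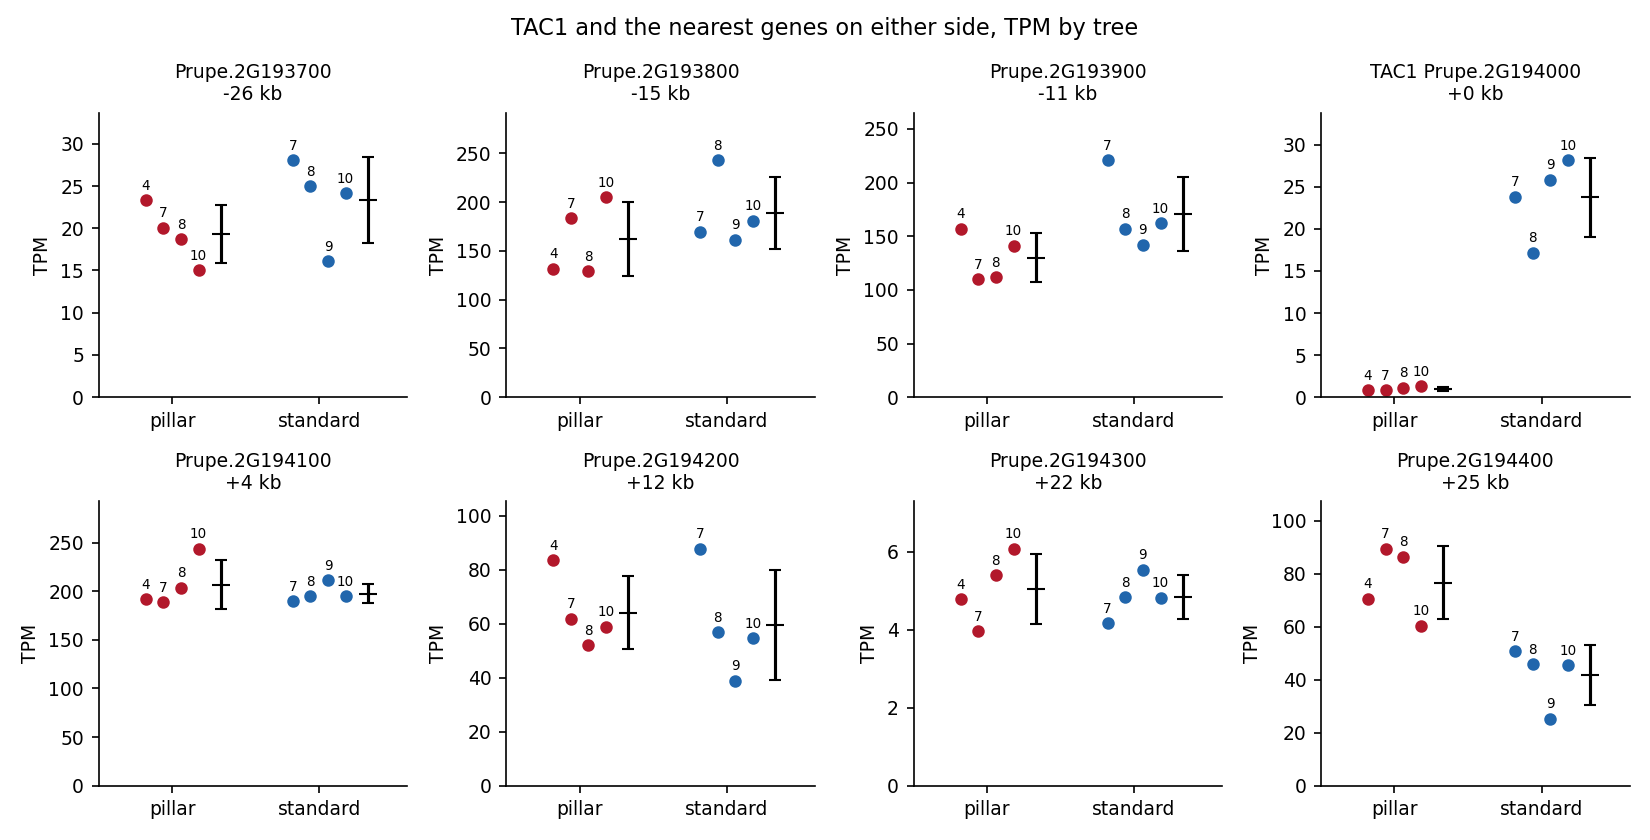
Expression of TAC1, its 3 nearest members on each side and Prupe.2G194400. Each point is 1 tree with its number, the vertical axis is TPM from 0, pillar is left and standard right, and the black bars give the mean and SD of 4 trees; titles give the distance of the gene start from that of TAC1. TAC1 is at 0.802 to 1.27 TPM in pillar and 17.2 to 28.2 TPM in standard trees, the groups overlap for the 6 nearest members, and they separate for Prupe.2G194400.

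The fourth member past TAC1 was higher in every pillar tree, but its test did not pass. Prupe.2G194400 starts 25 kb beyond the start of TAC1 and is annotated as homeobox 7, after an Arabidopsis transcription factor of the HD-Zip type that drought and abscisic acid induce. It had 70.5, 89.3, 86.3 and 60.3 TPM in pillar trees, against 50.7, 45.8, 25.3 and 45.3 TPM in standard trees. The lowest pillar tree was above the highest standard tree. Pillar over standard came to 0.90 on the log2 scale (standard error 0.23) with an adjusted p of 0.646 (limma). Within 100 kb of TAC1 there were 27 other members, of which 16 had a negative and 11 a positive log2 fold change. Their values ran from -0.45 to 0.90, and Prupe.2G194400 was the only one whose groups did not overlap. Over all tested genes 2.93% did not overlap, and 1 of 27 is close to that share.

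Most members of the segment had much the same level in both habits. Of the 263 members, 245 (93.2%) had a log2 fold change within 0.5 of 0, against 92.5% of all tested genes. The median log2 fold change of the members was -0.08, beside -0.09 over all tested genes, so the segment as a whole was not shifted from the rest of the table. The size of the log2 fold change had a median of 0.151 over the members and 0.15 over all tested genes. Levels were also ordinary: the median member had 14.7 TPM and the median tested gene 14.3 TPM, with 8 members under 1 TPM and 22 over 100 TPM. The summed level of the members was 9345 to 9960 TPM in pillar trees and 9442 to 10020 TPM in standard trees, with overlapping ranges.

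The 3 members of the highest mean level, Prupe.2G178800, Prupe.2G197300 and Prupe.2G182400, were among the many with little difference. Prupe.2G178800 had 498, 411, 581 and 458 TPM in pillar trees, against 496, 466, 515 and 501 TPM in standard trees. The difference was -0.03 on the log2 scale (95% confidence interval -0.35 to 0.28). Prupe.2G197300 had 323 to 551 TPM in pillar and 379 to 597 TPM in standard trees. Prupe.2G182400 had 253 to 369 TPM in pillar and 255 to 413 TPM in standard trees, and as its region runs into a neighbouring gene, some of its reads may belong there.

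Against this even background 7 members differed with an adjusted p under 0.05, 5 lower and 2 higher in pillar trees. That is 2.66% of the members, beside 24 of 20055 genes or 0.12% over the whole table. There 12 genes were lower and 12 higher (0.0598% each way). Chromosome 2 as a whole had 21 of 2435 tested genes (0.862%). The 2.1 Mb before the segment had a larger share than the segment, 8 of 240 (3.33%), and the 2.1 Mb after it had 3 of 298 (1.01%). The share in the segment is no independent finding, as the segment was chosen with earlier results of these data known. TAC1 and the markers Prupe.2G199900 and Prupe.2G200100 are among the 7, and the list of markers too was set with earlier results known. All 7 lay at TAC1 or beyond it toward higher coordinates: TAC1 itself, a pair of genes at 0.48 Mb, a pair at 0.73 Mb and a pair at 0.90 Mb from TAC1. In each pair the partners were neighbouring members and moved the same way. For 13 members (4.94%), 9 lower and 4 higher in pillar trees, the ranges of the habits did not overlap, beside 2.93% of all tested genes. This excess depended on pillar tree 4: without it the count was 33 (12.5%), below the 14% of all tested genes. Fewer trees are easier to separate, so the count rose whichever tree was left out. Without any 1 of the other trees it was 14 to 24 (5.32% to 9.13%). Each time this was above the share of all tested genes, which was 3.68% to 6.13%. A log2 fold change over 1 in size was found for 8 members (3.04%), beside 2.05% of all tested genes, and an unadjusted p under 0.05 for 19 (7.22%), beside 4.77%. Of the 7 genes, 4 had a group mean under the minimum of 0.5 TPM in one habit and reached the list through the other.

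**Figure D2:**
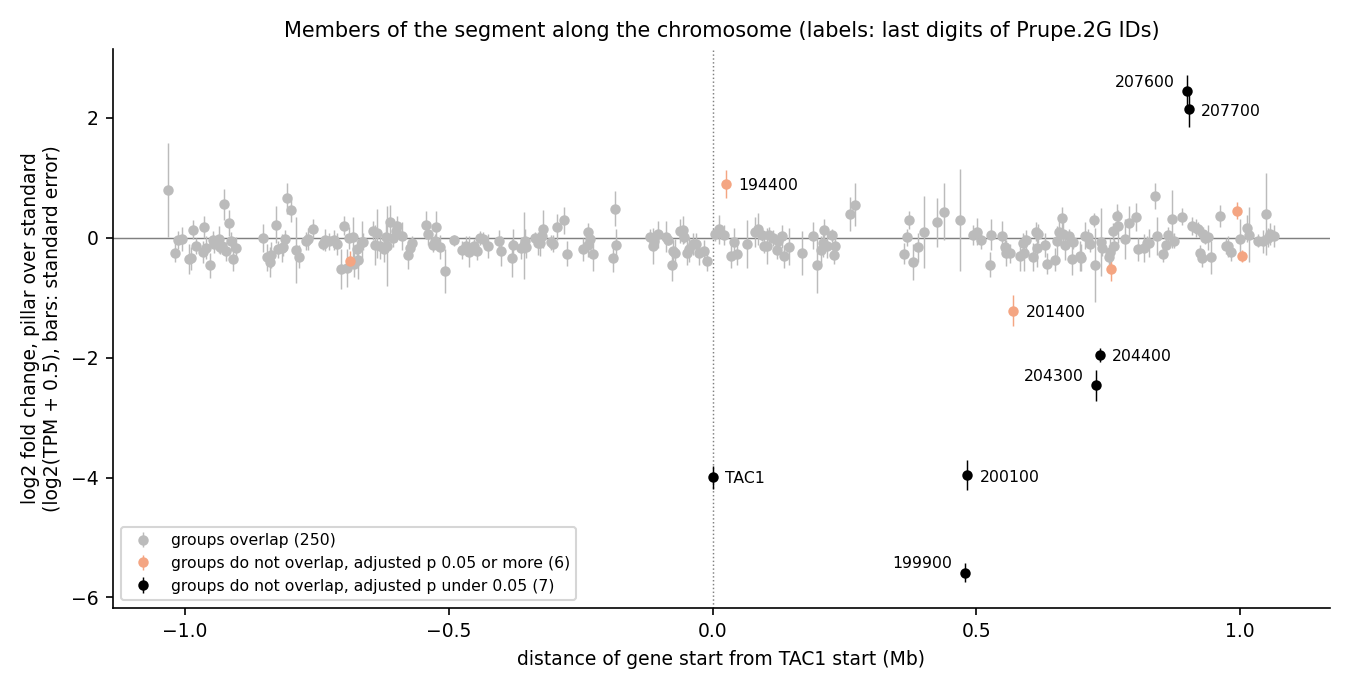
Log2 fold change, pillar over standard, of all 263 members by distance of the gene start from that of TAC1 in Mb. Points are genes and bars are standard errors; black marks the 7 members with an adjusted p under 0.05, orange the 6 others whose groups do not overlap and grey the remaining 250. The black points sit at TAC1 and at 0.48, 0.73 and 0.90 Mb beyond it, and the flank before TAC1 holds none.

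The pair at 0.48 Mb was almost absent from pillar trees. Prupe.2G199900 (minus strand, 23712803 to 23716092) had 0, 0.0395, 0.134 and 0.0319 TPM in pillar trees 4, 7, 8 and 10, against 21.6, 27.2, 30.2 and 25.3 TPM in standard trees 7, 8, 9 and 10. In reads this was 0, 1, 4 and 1 in the pillar trees, 6 in all, against 636, 786, 898 and 782 in the standard trees. In standard trees it was about as abundant per length as TAC1, and its log2 fold change was the lowest of all members, at -5.59 (95% confidence interval -5.96 to -5.22, adjusted p = 1.6e-06, limma). The ratio of the group means was 508, standard over pillar, and rests on the 6 pillar reads.

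Its partner Prupe.2G200100 (minus strand, 23716843 to 23720040) is annotated as O-methyltransferase 1, a type of enzyme that transfers methyl groups to phenolic compounds such as lignin precursors. It had 0.0745, 0.162, 0.516 and 0.197 TPM in pillar trees, against 14, 9.71, 7.79 and 12.5 TPM in standard trees. The pillar values rested on 2, 4, 15 and 6 reads. The groups were far apart, and pillar tree 8 had the most reads of the pillar trees for both genes of the pair. On the log2 scale the difference was -3.96 (95% confidence interval -4.52 to -3.40, adjusted p = 0.000224, limma), and the standard mean was 46.3 times the pillar mean.

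The 2 genes of this pair lie 750 bases apart on 1 strand, and in the RefSeq annotation of the same assembly a single long non-coding RNA model, from 23715690 to 23720046, covers Prupe.2G200100 and the adjoining end of Prupe.2G199900. RefSeq also places a pseudogene at Prupe.2G200100 and a second non-coding model at Prupe.2G199900. Neither gene is protein-coding there, and whether both are parts of 1 transcript was not tested. The region of Prupe.2G199900 also overlaps Prupe.2G200000, which had 0 TPM in every tree. The members around the pair did not share the difference: Prupe.2G199800 had a log2 fold change of 0.29 and Prupe.2G200300 of 0.04. Prupe.2G199800 was also the most variable member within the groups, at 3.51 to 41.2 TPM in pillar and 5.95 to 59.4 TPM in standard trees, and its interval ran from -1.63 to 2.22.

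The pair at 0.73 Mb was also lower in pillar trees, one partner to nothing and the other in part. Prupe.2G204300 (minus strand, 23961390 to 23962319) had no read in any pillar tree, against 2.64, 3.3, 1.31 and 2.18 TPM in standard trees 7, 8, 9 and 10, from 22, 27, 11 and 19 reads. With 3 reads over the 4 pillar trees as the limit that a count of 0 allows, the standard mean was 25.2 times that limit. This ratio leaves out the spread between trees and the uncertainty of the low standard counts. The fitted log2 fold change, -2.46 (adjusted p = 0.00752, limma), depends on the 0.5 TPM added and is no bound. In RefSeq this short gene and Prupe.2G204200 fall within 1 protein-coding model, from 23958835 to 23962455. Prupe.2G204200 did not share the difference: it had 1.89, 0, 3.95 and 0.664 TPM in pillar trees, against 1.41, 2.28, 0.818 and 2.59 TPM in standard trees.

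Prupe.2G204400 (plus strand, 23967624 to 23969962) is annotated as a phosphorylase superfamily protein, a family that holds nucleoside phosphorylases and the bark storage proteins of poplar. It had 4.79, 3.94, 4.75 and 5.07 TPM in pillar trees, against 19.7, 18.5, 20.1 and 19.2 TPM in standard trees. Both groups were tight, and the pillar trees averaged 4.64 ± 0.486 TPM where the standard trees averaged 19.4 ± 0.695 TPM (SD, n = 4 each). The log2 difference of -1.96 had a standard error of 0.12, the smallest of the 7 genes (adjusted p = 0.000219, limma). The partners lie 5304 bases apart on opposite strands. The next member on each side, Prupe.2G204200 and Prupe.2G204500, had log2 fold changes of -0.45 and -0.08 with wide intervals, and Prupe.2G204600 had -0.16.

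The pair at 0.90 Mb was higher in pillar trees. Both genes are annotated as beta-hydroxyisobutyryl-CoA hydrolase 1, which in Arabidopsis (CHY1) works in the breakdown of valine in peroxisomes. Prupe.2G207600 (plus strand, 24134001 to 24135971) had 180, 122, 137 and 217 TPM in pillar trees, against 17.1, 34.5, 30.7 and 37.9 TPM in standard trees. The lowest pillar tree was well above the highest standard tree, and the pillar mean of 164 ± 42.8 TPM was 5.46 times the standard mean of 30 ± 9.08 TPM (SD, n = 4 each). On the log2 scale this was 2.45 (95% confidence interval 1.84 to 3.06, adjusted p = 0.00972, limma).

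Prupe.2G207700 (plus strand, 24136379 to 24140082) begins 407 bases after the end of Prupe.2G207600. It had 2.93, 2.1, 3.33 and 5.52 TPM in pillar trees, against 0.12, 0.491, 0.508 and 0.374 TPM in standard trees, from 60 to 195 and 4 to 17 reads. The groups were again apart, at a far lower level than the partner. On the log2 scale the difference was 2.14 (95% confidence interval 1.48 to 2.80, adjusted p = 0.0389, limma), and this call was lost without any 1 of pillar trees 4, 8 and 10 or standard trees 7, 9 and 10 (adjusted p up to 0.172). RefSeq has a pseudogene there and a long protein-coding model that ends in Prupe.2G207600. As a 50-bp read could be placed at up to 10 sites, reads of 2 like genes could be split between them, and the part of this in their parallel difference was not tested. The nearest members, Prupe.2G207300 and Prupe.2G207900, had log2 fold changes of 0.35 and 0.20.

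**Figure D3:**
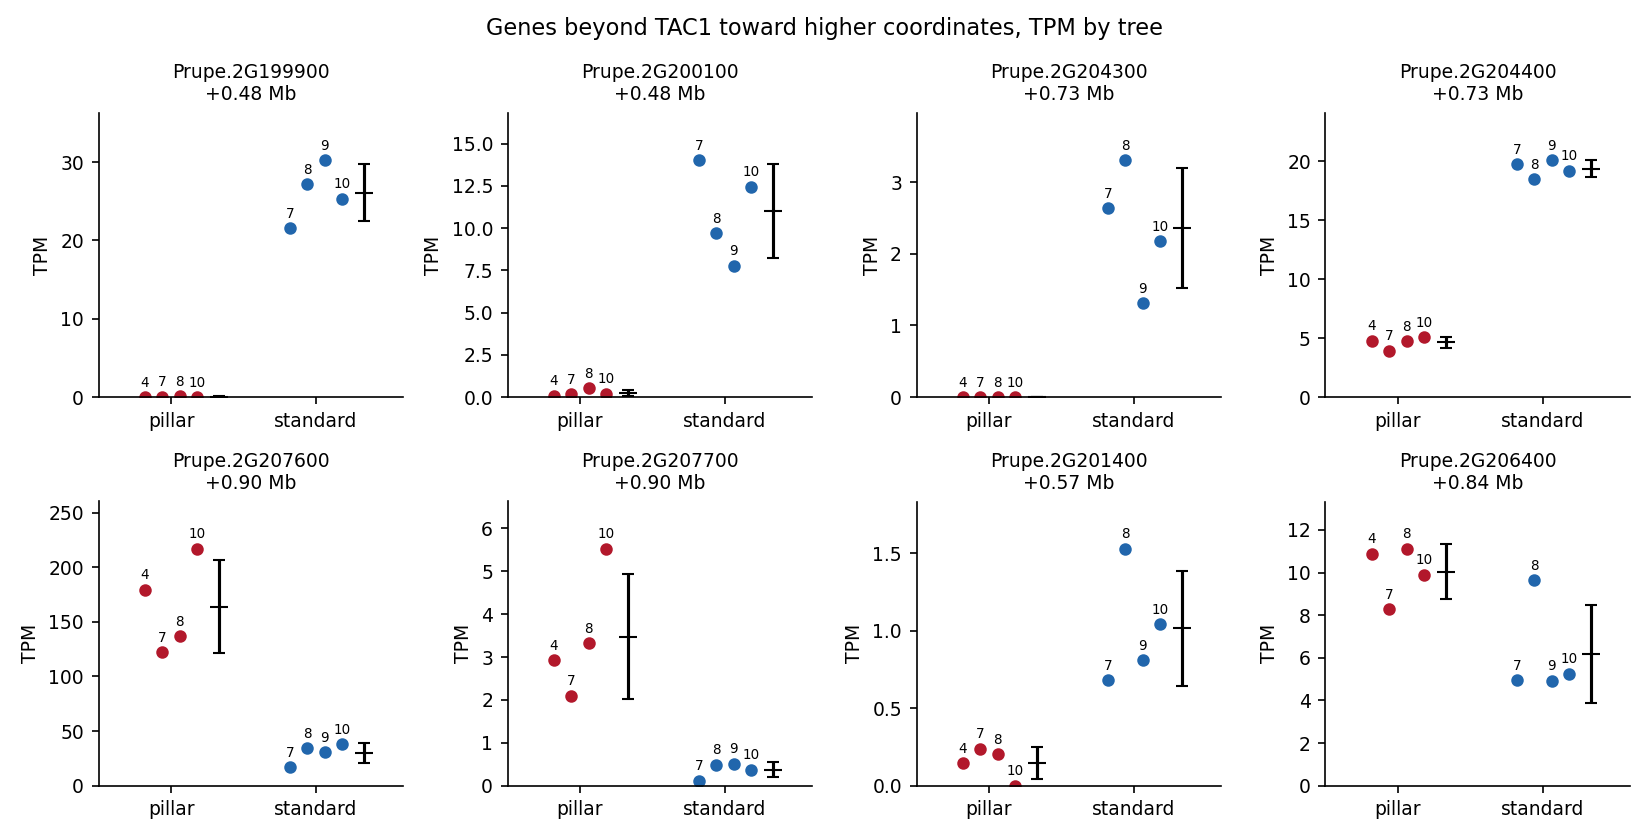
Expression of 8 members beyond TAC1. Each point is 1 tree with its number, the vertical axis is TPM from 0, pillar is left and standard right, black bars give the mean and SD of 4 trees, and titles give the distance from TAC1. The first 4 genes are lower in every pillar tree and Prupe.2G207600 and Prupe.2G207700 higher; Prupe.2G201400 separates at a low level, and for Prupe.2G206400 standard tree 8 lies among the pillar trees.

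For all 7 genes the groups did not overlap with all 8 trees. Their direction within 1 lane was thus fixed in advance and is no check on lane, and only the sizes and tests there can vary. In lane 6, with pillar trees 8 and 10 against the 4 standard trees, TAC1 had a log2 fold change of -3.80, Prupe.2G199900 of -5.51, Prupe.2G200100 of -3.74 and Prupe.2G204400 of -1.88, all with an adjusted p under 0.05. Prupe.2G204300, Prupe.2G207600 and Prupe.2G207700 kept values of -2.46, 2.56 and 2.48 there, but their adjusted p was 0.098, 0.098 and 0.0811 (limma). Without pillar tree 4, 5 members were lower and 1 higher with an adjusted p under 0.05, and Prupe.2G207700 was the one lost.

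Beside the 7, the groups did not overlap for 6 more members, with smaller differences that did not pass the test. Prupe.2G201400 at 0.57 Mb had 0.146, 0.238, 0.202 and 0 TPM in pillar trees, against 0.681, 1.53, 0.812 and 1.04 TPM in standard trees. It was low in both habits, at 0 to 3 reads per pillar tree and 10 to 22 per standard tree, and RefSeq has no model at its place. Its log2 fold change was -1.21 (adjusted p = 0.35, limma), and it passed the minimum level through the standard trees alone. Prupe.2G209300 had 31.2 to 46.6 TPM in pillar and 23.9 to 30.5 TPM in standard trees, and Prupe.2G209500, which starts 9 kb further with 1 member between them, had 23.3 to 28.3 TPM in pillar and 30.6 to 33.6 TPM in standard trees. The log2 fold changes of these genes were 0.45 and -0.30, with an adjusted p of 0.852 and 0.902 (limma). Prupe.2G205000 (log2 fold change -0.52, region overlapping another gene) and Prupe.2G183400 (-0.39), named after their values were seen as was Prupe.2G201400, complete the 13 together with Prupe.2G194400.

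Of the 263 members 8 are in the gene list of the study, which was chosen on these same trees and is no independent support for their direction. They are TAC1, Prupe.2G194400, 4 genes of the pairs (Prupe.2G200100, Prupe.2G204400, Prupe.2G207600 and Prupe.2G207700) and a pair of genes whose groups overlap here. Prupe.2G181400, annotated as chitinase A, an enzyme class of plant defence, had 231, 429, 325 and 485 TPM in pillar trees, against 284, 241, 166 and 222 TPM in standard trees. Pillar tree 4 was below standard trees 7 and 8, and the other pillar trees were above all standard trees. Its log2 fold change was 0.66 (adjusted p = 0.902, limma). Prupe.2G206400, annotated as a membrane transporter of the major facilitator superfamily, had 10.9, 8.27, 11.1 and 9.9 TPM in pillar trees, against 4.96, 9.64, 4.92 and 5.25 TPM in standard trees. Standard tree 8 lay within the pillar values, and the log2 fold change was 0.70 (adjusted p = 0.847, limma). WEEP (Prupe.3G200700), on chromosome 3, is the only gene of the branch angle list that could be matched by name, and the match came from that same list. It had 39.2, 38.6, 64.5 and 34.9 TPM in pillar trees, against 78.3, 70.8, 70.8 and 70.9 TPM in standard trees. The groups did not overlap, and the difference was -0.75 on the log2 scale (adjusted p = 0.585, limma).

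The flanks of TAC1 held equal numbers of members, and those with an adjusted p under 0.05 all lay on one of them. Among the 131 members before TAC1, 0 had an adjusted p under 0.05, 3 had an unadjusted p under 0.05 and the groups did not overlap for 1 (0.763%). Among the 131 beyond TAC1, 6 (4.58%) had an adjusted p under 0.05 and 15 (11.5%) an unadjusted p under 0.05. The groups did not overlap for 11 (8.4%). Over all tested genes these shares were 0.12%, 4.77% and 2.93%. Of the 6 genes, 4 averaged under 0.5 TPM in 1 habit and passed the minimum through the other. The contrast in overlap rested on pillar tree 4. Without it 15 members before TAC1 (11.5%) and 17 beyond it (13%) did not overlap, beside 14% of all tested genes. The members with an adjusted p under 0.05 then numbered 0 and 5. The log2 fold changes before TAC1 ran from -0.55 to 0.79. Linked genes are not independent, so no test was made over them. In steps of 0.25 Mb away from TAC1 on the side beyond it, the members without overlap numbered 2 of 31, TAC1 included, then 2 of 14, 3 of 39, 4 of 38 and 1 of 10. With all 8 trees each step thus held some, but steps this small cannot show whether they were spread evenly. Between Prupe.2G194400 and Prupe.2G199900, over 454 kb, none of 37 members separated the habits with all 8 trees. This gap was picked by the separating genes at its ends, and at the 2.93% of all tested genes 37 members may well hold none.

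Genes with a passing test also lay outside the segment. Of the 24 genes with an adjusted p under 0.05, 21 lay on chromosome 2, 11 of them before the segment, 7 in it and 3 after it. The nearest such gene before TAC1 was 1.95 Mb away, and the next one after the segment was 1.38 Mb from TAC1. In the 2.1 Mb before the segment the groups did not overlap for 28 of 240 genes (11.7%), and in the 2.1 Mb after it for 16 of 298 (5.37%), beside 4.94% in the segment. By 1 Mb stretches of chromosome 2, the stretch from 22 to 23 Mb, which holds most of the flank before TAC1, had 2 such genes of 133 (1.5%), while the stretch before it had 21 of 114 (18.4%) and the stretch with TAC1 8 of 114 (7.02%). The highest share, 12 of 46 (26.1%), was at 16 to 17 Mb, more than 6 Mb from TAC1. These shares also moved without pillar tree 4, to 12.8% at 22 to 23 Mb, 26.3% in the stretch before it, 11.4% in the stretch with TAC1 and 30.4% at 16 to 17 Mb, beside 14% of all tested genes. In the same way they came to 22.5% in the 2.1 Mb before the segment and 17.4% in the 2.1 Mb after it.

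**Figure D4:**
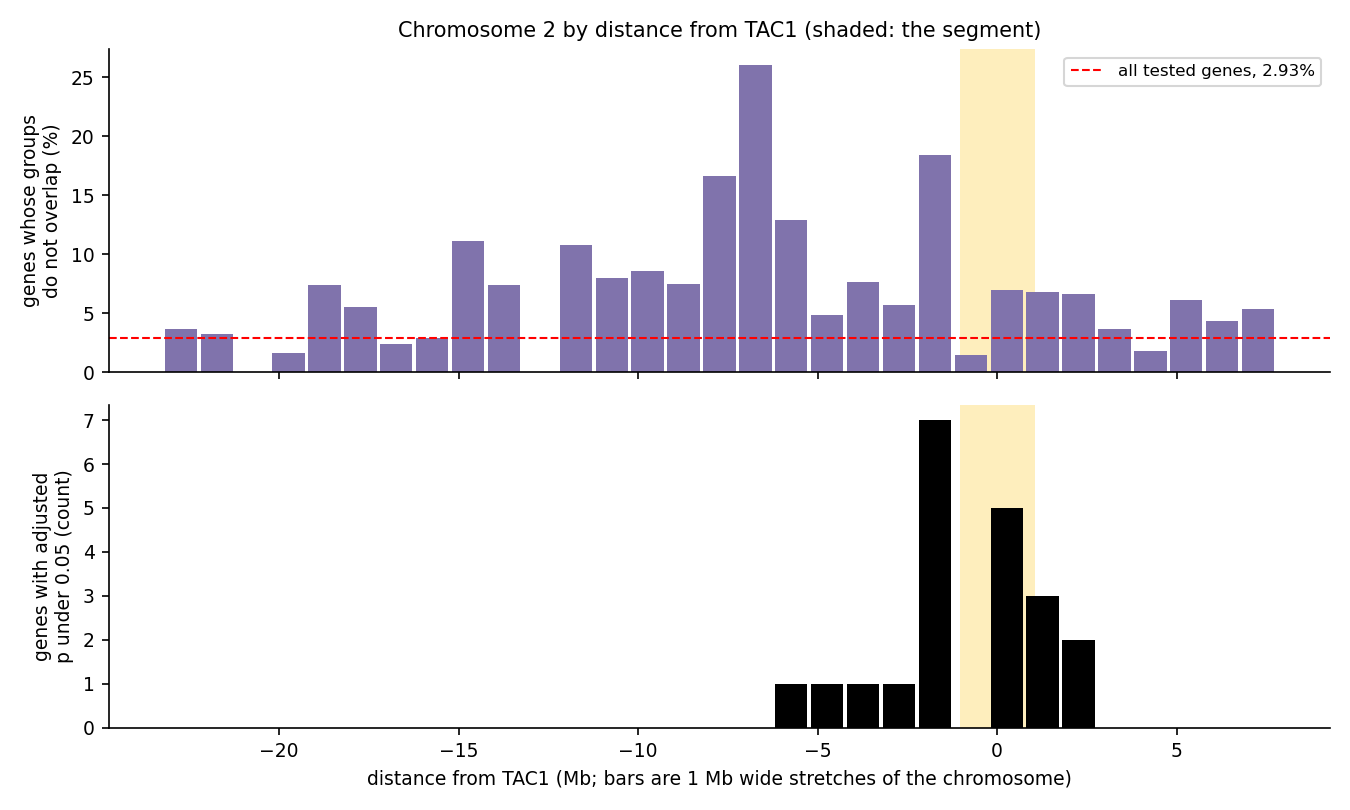
Chromosome 2 in stretches of 1 Mb, placed by their distance from TAC1 in Mb, with the segment shaded. The upper bars give the percent of tested genes whose pillar and standard trees do not overlap, with the dashed line at 2.93% for all tested genes, and the lower bars count genes with an adjusted p under 0.05. With all 8 trees the stretch from 22 to 23 Mb is at 1.5%, between stretches at 18.4% and 7.02%; without pillar tree 4 these are 12.8%, 26.3% and 11.4%.

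Some of the differing genes have no protein-coding model in RefSeq. By position, 244 of the 263 members overlap a protein-coding RefSeq gene by at least 100 bases, and 19 (7.22%) overlap only a non-coding RNA or pseudogene or nothing. Of the 7 genes with an adjusted p under 0.05, 3 are among these 19: Prupe.2G199900, Prupe.2G200100 and Prupe.2G207700. As Prupe.2G199900 and Prupe.2G200100 share a non-coding model, they may not be separate cases. The share over all tested genes was not measured. TAC1, Prupe.2G204300, Prupe.2G204400 and Prupe.2G207600 overlap protein-coding models. The spread between trees was wider among pillar than among standard trees, with a median SD of 0.308 and 0.202 on the log2 scale over the members, and likewise 0.304 and 0.198 over all tested genes. The standard trees were all in lane 6 and the pillar trees in lanes 6 and 8. The part of lane and of pillar tree 4 in the wider spread was not tested.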

How the data were processed

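Shoot tip RNA-seq of 8 peach trees, 4 pillar and 4 standard as labelled, was analysed. The authors trimmed single 50-bp reads, placed them on peach genome version 2 with CLC Genomics Workbench (up to 10 hits per read) and deposited TPM per gene and tree. Although RPKM is the value named in the methods, each tree has an equal total, as TPM have. TPM are scaled to the whole gene region, introns included, which lowers genes with long introns. The second entry of each gene, 0 in every tree, and the authors' own comparison (6 columns of group mean maximum, fold changes and p-values) were not used.

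Multiplied by gene length, TPM were whole multiples of 1 read for 100% of nonzero values under 10000 reads (tolerance 0.05 reads), which gave reads per gene. The habits were compared on log2(TPM + 0.5) with limma 3.58.1 in R 4.3.3 (lmFit, and eBayes with its trend option). Genes averaging at least 0.5 TPM entered, 20055 in number, and p-values were adjusted by Benjamini-Hochberg over all of them. Fold changes on this scale understate those of low genes. Each tree is 1 replicate, and p-values measure the spread between these trees. The exact permutation test was run in Python 3.11.15 (scipy 1.17.1). The comparison was tested on simulated data. RefSeq gene models of the same assembly (Prunus_persica_NCBIv2) were matched by position: 254 members had a model, and for 194 of these (76.4%) both ends agreed within 500 bases.

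The segment, the gene lists and the tests were chosen with earlier results of these data known. Genes were named by rule: TAC1 and the markers Prupe.2G199900 and Prupe.2G200100, the 3 nearest members on each side, every member with an adjusted p under 0.05, the 5 largest and 5 smallest changes among members without overlap, members in Dataset S1 of the study (names only), the 3 of highest level, and members that separate only without 1 tree with a log2 fold change of at least 1 (there were 0). A planned check of tissue markers could not be made, and of a planned list of branch angle genes only 1 could be matched, as names were matched through Dataset S1. Alternatives were scaling (RPKM or upper quartile), pseudocounts of 0.1 and 1, no filter, voom on the recovered reads, no variance trend, each tree left out, the tree number as a block, lane 6 alone, and no overlapping genes (37 members).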

Additional observations from a re-analysis of the deposited data

Results flagged for a closer look

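For 1 of the named members a single tree lay far from the others of its group. Prupe.2G206400, at 0.84 Mb from TAC1, stood at 9.64 TPM in standard tree 8 while standard trees 7, 9 and 10 had 4.92 to 5.25 TPM, and the gap made up 0.93 of the range of the 4 trees. The pillar trees had 8.27 to 11.1 TPM. RefSeq has a pseudogene at its place. Of 42 groups of 4 trees that were looked at, 1 of them at 0 throughout, 1 stood out. This is no more than chance gives, at about 1 in 20 for each group.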

How the results depend on the processing

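TAC1 and Prupe.2G199900 kept an adjusted p under 0.05 from limma in every alternative in which they were tested, with log2 fold changes of -4.49 to -3.43 for TAC1 and -8.92 to -4.38 for Prupe.2G199900. The flank before TAC1 had 0 such genes in every alternative. With each tree left out in turn, 5 members were lower, 1 to 2 higher, 14 to 33 did not overlap, the median log2 fold change of the members was -0.12 to -0.05, that of TAC1 was -4.14 to -3.91, and 5 to 6 genes beyond TAC1 were called. The number without overlap was highest without pillar tree 4, where it was 12.5% of members and 14% of all tested genes, so the excess over all genes was reversed. Only 1 member was higher with RPKM scaling, with a pseudocount of 0.1 and with voom, as Prupe.2G207700 was lost (adjusted p 0.0706, 0.0573 and 0.134). Within lane 6, 4 members were lower and 0 higher, 76 did not overlap (28.9%, beside 28.6% of all tested genes) and 3 genes beyond TAC1 were called, with 2 pillar trees in place of 4.

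The tree numbers are shared by pillar and standard trees 7, 8 and 10 but did not pair them: deviations from the group means correlated at 0.287, 0.0964 and -0.0911. With the tree number as a replicate block over these 6 trees, 2 members were lower (TAC1 and Prupe.2G199900) and 0 higher, 57 did not overlap (21.7%, beside 20.6% of all tested genes), and 1 gene beyond TAC1 was called, with 5 calls over all genes. The same 6 trees without the block, added after seeing the data, gave 5 lower, 0 higher, the same 57 without overlap and 27 calls over all genes, and the segment's calls were 7 with 8 trees, 5 with these 6 and 2 with the block. Genes with under 30 reads per tree, such as Prupe.2G204300 and Prupe.2G201400, are limited by depth.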
